A study of Mus musculus with 24 samples.

Results

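The regions described here are peaks of STAU2-bound RNA in the developing mouse cortex that passed a presence level at E11.5 and at no later stage. The table of peaks held 14292 rows that carry a gene and are not called Intergenic, each being 1 peak on 1 strand. Counts of each library were divided by the median count of these rows in that library and expressed as percent. A row was taken as present at a stage when all 3 libraries of the stage reached 45%. By this rule the number of rows present was 9218 for E11.5, then 9482 for E13.5, 9413 for E15.5 and lastly 9136 for E17.5. Members were the 807 rows present at E11.5 and at none of the later stages, which is 5.65% of all gene rows and 8.75% of those present at E11.5. They belonged to 701 genes. By the same rule 154 rows were present only at E13.5, 109 only at E15.5 and 605 only at E17.5. Members were thus chosen by their counts in all 12 libraries, and their levels at E11.5 against the later stages are given as a description.

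All groups were brain cortex of C57BL/6 mouse embryos at E11.5, E13.5, E15.5 or E17.5, with no genotype or treatment beyond the strain in the labels. RNA was immunoprecipitated with an antibody against STAU2, with 3 libraries per stage. The labels also list 12 input libraries, which were not analysed here. A level of STAU2-bound RNA therefore joins the amount of the RNA with its binding, and in bulk tissue fewer cells of a type and less RNA per cell cannot be told apart.

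STAU2 is a double-stranded RNA-binding protein that binds paired stretches of messenger RNAs, most often described in 3' UTRs, and takes part in their transport, stability and local translation. In the embryonic cortex it is known for being passed unequally to the daughters of dividing radial glia, the progenitor cells that line the ventricle. At E11.5 the cortical wall is mostly neuroepithelium, the sheet of early progenitors, and by E17.5 it holds layers of neurons. RNAs of early progenitors, of forebrain patterning factors and of the tissue that surrounds the early brain are common in such samples.

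Of the member sequences, 3 are printed because each is a peak of the shortest width in the table (145 bases) that lies wholly in a coding exon, and because results below turn on it. They are the rows of Ccnjl (chr11:43585490-43585634, plus strand), a cyclin J-like protein, of Chd7 (chr4:8752329-8752473, plus strand), a chromatin remodeller, and of Nova1 (chr12:46700517-46700661, minus strand), a neuronal splicing regulator. Positions are on GRCm38, and sequences come from GENCODE vM21 transcripts of that build, read 5′ to 3′ on the strand of the gene. Capitals mark both arms of the longest stem in the lowest-energy fold that RNAfold predicts.
Ccnjl: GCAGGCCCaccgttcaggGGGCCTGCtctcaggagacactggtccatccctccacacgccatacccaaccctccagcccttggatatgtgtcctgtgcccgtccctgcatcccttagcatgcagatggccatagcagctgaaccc
Chd7: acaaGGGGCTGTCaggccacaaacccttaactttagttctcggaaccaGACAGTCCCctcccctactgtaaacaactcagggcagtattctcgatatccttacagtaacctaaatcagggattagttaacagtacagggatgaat
Nova1: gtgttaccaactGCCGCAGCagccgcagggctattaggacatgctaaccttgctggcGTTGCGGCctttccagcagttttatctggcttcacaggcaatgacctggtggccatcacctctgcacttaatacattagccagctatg

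The predicted stem has 8 base pairs in Ccnjl with 10 bases between the arms, 9 pairs in Chd7 with 35 bases between them and 8 pairs in Nova1 with 37. The folds have a predicted free energy of -49.67, -35.0 and -51.9 kcal/mol, and the sequences a GC content of 62.1%, 45.5% and 53.1%. Of the UTR members, the stem arms alone are printed for 2, the first a row that the results turn on and the second, chosen after its fold was seen, for its long stem with a short loop. The Lin28b row lies in the 3' UTR at chr10:45379210-45379526 and is 317 bases long. Only its central window, chr10:45379296-45379440, was folded, and stems elsewhere in the row were not looked for. The longest stem in that window has the following arms, 8 pairs with 8 bases between them.
Lin28b 5′ arm: CTCCTGTG
Lin28b 3′ arm: CATGGGAG
The row of Tspan2, which encodes a tetraspanin, lies at chr3:102770112-102770256 and has arms of 11 pairs with 3 bases between them.
Tspan2 5′ arm: GCTCAGGTTCT
Tspan2 3′ arm: GGAGCCTGAGT
A stem is a prediction from the letters alone and is not a measured site. Only 300 of the 807 members (37.2%) lie wholly in 1 exon, so that a transcript sequence could be read for them. A comparison of GC content or folding over all members was void for that reason.

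The 12 libraries had 4685708 to 6372132 counts in gene rows, and those of E11.5 stood apart in composition. Their 10 highest rows, led by Cmss1, held 55.6% to 64.2% of the counts, against 21.7% to 32% at later stages. The median row had 29 to 37 counts at E11.5 and 64 to 103 later, so that the presence level of 45% lay at 13.05 to 16.65 counts at E11.5 and at 28.8 to 46.35 counts later. TMM factors, which correct for such composition, were 0.49 to 0.604 at E11.5 and 1.15 to 1.41 later. Scaling by the total of gene rows in place of TMM moved the median log2 change of all rows up by 1.16, to 1.21, at E13.5 against E11.5, and the part of called rows that were lower from 45.7% to 2.19%. At E17.5 against E11.5 the median moved up by 1.18, to 1.19, and the part that were lower went from 50.2% to 14.3%. A fall from E11.5 is therefore a fall against the typical row. Between E17.5 and E13.5 that scaling left the median of all rows at 0. Genes that define the dorsal forebrain (Emx1, Emx2, Pax6) had rows in the table, as the tissue label requires.

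The members were low-count regions, and their median level against the typical row was lower at each stage than at the one before. Their mean level, as percent of the median row, had a median over members of 88.6% at E11.5 (quartiles 72.4% and 119%), 43.3% at E13.5 (30.4% and 52.4%), 33.5% at E15.5 (21.2% and 44%) and 23.5% at E17.5 (11% and 36.2%). The members held 0.483% to 0.567% of gene-row counts in the E11.5 libraries, 0.43% to 0.514% in those of E13.5, 0.372% to 0.435% in those of E15.5 and 0.279% to 0.292% in those of E17.5. Neighbouring stages up to E15.5 overlapped in this share, and E17.5 lay below them all. The share is of all gene-row counts, of which the 10 highest rows held far more at E11.5. It is thus no level against the typical row. The presence rule did not mean absence later. All 9 later libraries lay below 45% in 213 members (26.4%), while 212 members had 4 to 6 later libraries at or above it, and 311 had 2 of 3 at E13.5.

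**Figure D1:**
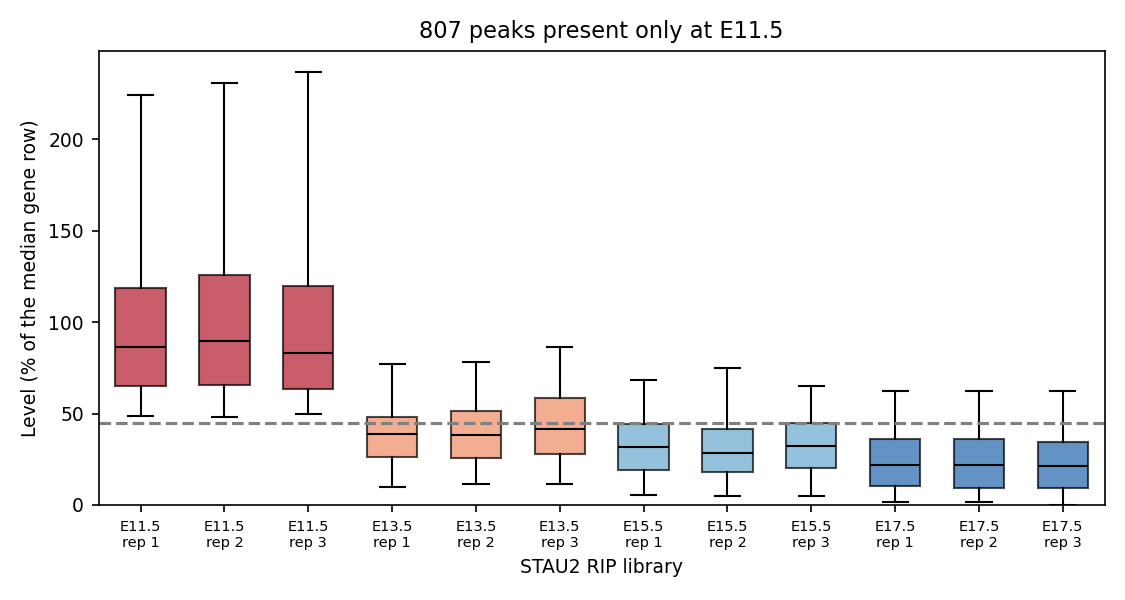
Levels of the 807 members in each of the 12 libraries, as percent of the library's median gene row; boxes span the quartiles, whiskers the 5th to 95th percentiles, and the dashed line marks the presence level of 45%. The boxes step down from E11.5 to E17.5, while the upper whiskers of later libraries still pass the line.

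Members near the presence level differed little from rows just outside it. Arfgef1, Cblb, Ccdc14 and Chmp1b entered with a smallest E11.5 value of 45.9%, and Acadl, Arpin, Aup1 and Camk2d stayed out with 44.8%. On the later side Chd7, Gng12, Impa2 and Nop58 entered with a highest later-stage minimum of 44.9%. Rows of Mmut and Tamalin stayed out at the level itself to 1 decimal, and rows of Mdm1 and Pbrm1 with 45.2%. The Chd7 row printed above shows what this means for the label. It had 7.07, 6.08 and 7.52 CPM (edgeR's library-scaled counts, after TMM) at E11.5, 5.57, 8.1 and 5.11 at E13.5, 6.86, 4.25 and 7.91 at E15.5, and 1.51, 0.723 and 0.943 at E17.5. The first 3 stages overlapped and the E17.5 libraries lay below them all. "Present only at E11.5" is thus a threshold and not an on-and-off state, and it covers rows such as Chd7 whose level held until E15.5.

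Beside the presence rule, 486 members (60.2%) had all 3 E11.5 libraries above all 9 later ones in percent of the median row, against 13.52% of all gene rows. In edgeR's quasi-likelihood test over 14101 rows, with Benjamini-Hochberg adjustment at 0.05, 320 members (39.7%) in 272 genes were lower at E13.5 than at E11.5 and 0 were higher, where 7.88% of all rows tested were lower and 9.36% higher. At E15.5, 504 members (62.5%) were lower, where 14.9% of all rows were. At E17.5 the count was 641 (79.4%) with 0 higher, where 26.1% of all rows were lower and 25.9% higher. These comparisons share the E11.5 libraries and are the ones the rule used, so nothing is read from them beyond the sizes. The median log2 change of members was -1.09 at E13.5 and -2.0 at E17.5, against 0.05 and 0.02 for all rows. Without E13.5 replicate 1, 206 members were lower at E13.5, and with scaling by the total of gene rows 97 (12%) were lower at E13.5 and 329 (40.8%) at E17.5, where 1.32% and 9.23% of all rows were.

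By the stage at which they were first called, 306 members were lower than E11.5 at all 3 later stages, 168 at E15.5 and E17.5 but not at E13.5, and 162 at E17.5 alone. A further 134 members (16.6%) were called lower at no later stage, and 37 had another pattern. The stage means fell in strict order in 462 members. All 807 members passed the filter on low counts, as the rule's level at E11.5 made them do.

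Among the members were timing genes of early progenitors. Hmga2, a chromatin protein of young stem cells, and Lin28b, an RNA-binding protein that blocks maturation of let-7 microRNAs, are both known as let-7 targets that are high early in development. The Lin28b row had 44.8, 68.4 and 95.4 CPM at E11.5, 0.557, 0.579 and 0.767 at E13.5, 0.122, 0 and 0 at E15.5, and 0, 0.181 and 0.314 at E17.5. No later library reached 1 CPM, and the log2 change from E11.5 to E13.5 was -6.72 ± 0.52 (SE), the lowest of any named member. The Hmga2 member, called 5' UTR (chr10:120476338-120476482, minus strand), had 61.9, 91.2 and 86.8 CPM at E11.5, 2.09, 2.02 and 2.68 at E13.5, 0.49, 1.37 and 0.223 at E15.5, and 0 counts in all 3 libraries at E17.5. The same peak had an opposite-strand row called Intergenic, listed at 190, 456 and 96 counts at E11.5 and at 0 at E17.5. Rows called Intergenic at such peaks hold even numbers alone, and the part of reads from the other strand in either row was not tested. The level of the Hmga2 member fell by 5.12 ± 0.47 (SE) on the log2 scale to E13.5 and was at least 466-fold higher at E11.5 than at E17.5, taking 3 counts over the 3 libraries as the floor. Sall4, a zinc finger factor of stem cells, fell less: it had 14.1, 23.2 and 25.2 CPM at E11.5, 8.49, 4.48 and 5.24 at E13.5, and 0, 1.09 and 0 at E17.5. Its log2 change to E13.5 was -1.77 ± 0.56 (SE), and without any one of 4 of the E11.5 and E13.5 libraries it missed the threshold (edgeR adjusted p of 0.068 to 0.0989).

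Hmga2 also shows that membership describes a peak and not a gene. A pair of further Hmga2 rows in the 3' UTR were not members, because their counts at E11.5 were so high that a similar fall left them above the level at E13.5. The higher of them had 1144, 1057 and 1691 CPM at E11.5, 28.9, 29.8 and 54.7 at E13.5, and 0, 1.09 and 0 at E17.5. Of the list of early progenitor timing genes, 7 of 15 genes had a row. Of their 13 rows, 9 were lower and 1 higher at E13.5 than at E11.5, and 13 lower and 0 higher at E17.5. These counts include the 3 member rows, which the rule chose for being high at E11.5. Beside this list and those below stand the shares of all rows tested, 7.88% lower and 9.36% higher at E13.5. At E17.5 those shares were 26.1% and 25.9%.

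**Figure D2:**
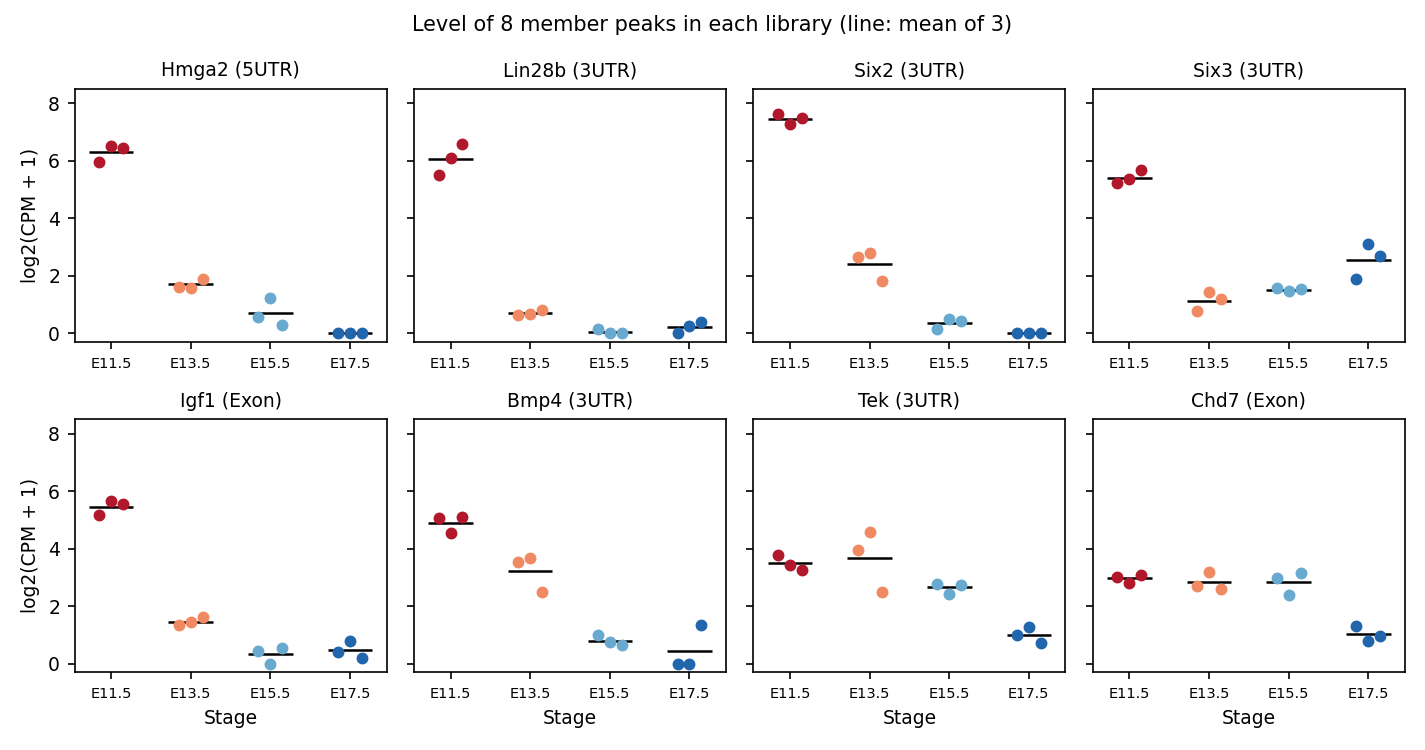
Levels of 8 member rows in each library as log2(CPM + 1), by stage, with 1 point per library and a line at the mean of 3. Six2, Hmga2, Lin28b and Igf1 drop below 3 on this scale at E13.5 and lie lower still at E15.5, Six3 is higher at E17.5 than at E13.5, and Chd7 holds until E15.5 and Tek until E13.5.

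Patterning transcription factors gave 7 members, among them rows of Six2, Six3, Otx2, Alx4, Tfap2a and Tfap2b. The homeodomain factors among them shape the forebrain, eye and head, and TFAP2 factors act in surface ectoderm and neural crest. The Six2 row (3' UTR, chr17:85684255-85685053, minus strand) was the highest member at E11.5, with 198, 156 and 178 CPM. It had 5.29, 5.93 and 2.56 CPM at E13.5, 0.122, 0.412 and 0.334 at E15.5, and 0 counts in all 3 libraries at E17.5. An opposite-strand row called Intergenic at this peak was listed at 156, 292 and 92 counts at E11.5, and here too the part of the other strand was not tested. The fall of the Six2 row to E13.5 was by 5.27 ± 0.44 (SE) on the log2 scale, and E11.5 was at least 1064-fold higher than E17.5 against the same floor. Every E11.5 library lay above every later one, and the stages did not overlap. Tfap2b (3' UTR, chr1:19237683-19238037, plus strand) had 35.6, 24.3 and 27.1 CPM at E11.5, 2.23, 4.05 and 2.43 at E13.5, 0.367, 0.549 and 0.111 at E15.5, and 0 in all 3 at E17.5, at least 176-fold below E11.5.

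Six3, needed for the anterior forebrain and eye, went a different way. Its row (3' UTR, chr17:85624011-85624514, plus strand) had 36.2, 40.3 and 50 CPM at E11.5, 0.696, 1.74 and 1.28 at E13.5, 1.96, 1.78 and 1.89 at E15.5, and 2.69, 7.6 and 5.5 at E17.5. After a fall by 5.07 ± 0.46 (SE) on the log2 scale to E13.5 it rose by 2.07 ± 0.45 from E13.5 to E17.5 (edgeR adjusted p = 0.00152), with all 3 E17.5 libraries above the 3 of E13.5. The rise passed the threshold without any one library as well. As the rule used the libraries of both stages, adjusted p-values of members between later stages are a description here and below. Otx2 (log2 change to E13.5 -2.38 ± 0.53 SE) and Tfap2a (-2.79 ± 0.75) were lower members of the group. Tfap2a varied most between libraries, with 2.51, 0.289 and 5.88 CPM at E13.5, and DESeq2 gave its fall an adjusted p of 0.204. Of the 20 rows of the patterning list, 7 were lower and 1 higher at E13.5, and 17 were lower and 0 higher at E17.5. These counts include the list's 7 member rows. The eye list, of retina and pigment cell genes, had 1 of 8 genes in the table at 0 to 1.26 CPM, and the surface epithelium list had no row.

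Secreted factors followed. Igf1, the insulin-like growth factor, had 3 rows in the table and all were members. The highest (Exon, chr10:87913630-87913946, plus strand) had 34.8, 49.8 and 45.5 CPM at E11.5, 1.53, 1.74 and 2.05 at E13.5, 0.367, 0 and 0.445 at E15.5, and 0.336, 0.723 and 0.157 at E17.5. That is a log2 change of -4.59 ± 0.46 (SE) to E13.5, with no later library within 10-fold of any E11.5 library. Apela, a short peptide hormone of the early embryo, had both of its rows among the members, and its 5' UTR row went from 20.9, 16.7 and 7.14 CPM at E11.5 to 0.418, 1.01 and 0 at E13.5 (log2 change -4.96 ± 0.68 SE). Rspo1, which strengthens WNT signalling, had 7.07, 11.4 and 16.2 CPM at E11.5, 0.835, 0.723 and 0.639 at E13.5, and 0 at E17.5.

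Bmp4, a signal of the dorsal midline and of tissue outside the brain, fell later than the others. It had 32.7, 22.4 and 33.4 CPM at E11.5, 10.7, 11.7 and 4.6 at E13.5, 0.979, 0.686 and 0.557 at E15.5, and 0, 0 and 1.57 at E17.5. Its log2 change was -1.71 ± 0.52 (SE) from E11.5 to E13.5 and -3.98 ± 0.68 from E13.5 to E17.5 (edgeR adjusted p = 0.000158). The list of growth factors and their inhibitors had 22 rows, of which 11 were lower and 2 higher at E13.5 and 18 lower and 1 higher at E17.5. Its 7 member rows are part of those counts.

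Several members belong to cell types that surround or enter the brain. Twist1, Prrx2 and Snai2 are transcription factors of mesenchyme, the loose tissue of the head and of the forming meninges. Twist1 had 33.3, 31.5 and 44.7 CPM at E11.5, 3.48, 1.59 and 6.77 at E13.5, 0.367, 0.274 and 0.334 at E15.5, and 0.84, 0.181 and 0.157 at E17.5 (log2 change to E13.5 -3.19 ± 0.46 SE). Prrx2 had 14.1, 16.3 and 22.9 CPM at E11.5 and 0.835, 1.01 and 1.15 at E13.5. Snai2 was uneven at E11.5, with 9.13, 33.8 and 6.39 CPM, and had 0.835, 3.76 and 1.15 at E13.5.

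The whole mesenchyme and meninges list, of which 11 of 19 genes had a row, kept its summed level until E13.5. Its summed level was 387 to 483 CPM in the E11.5 libraries and 390 to 402 in those of E13.5. By E15.5 it was 67.8 to 83.3, and by E17.5 it was 17 to 19.7. At E13.5, 5 of its 17 rows were lower and 2 higher. At E17.5, 17 of 17 were lower, and a Lum row was at 0 in all 3 libraries. The list's 3 member rows are part of these counts. The part of these cells in the members' fall was not tested.

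Ermap and Alas2 are genes of red blood cell precursors, the first a membrane protein and the second the erythroid enzyme that starts heme synthesis. Ermap had 20.9, 13.7 and 20.3 CPM at E11.5, 0.139, 0.434 and 0.767 at E13.5 and at most 0.49 in any library after that (log2 change to E13.5 -5.28 ± 0.62 SE). Alas2 had 12.1, 16.3 and 8.27 CPM at E11.5 and 0.835, 0.434 and 0.256 at E13.5. The erythroid list had rows for 4 of 26 genes, and its summed level was uneven within stages, at 61 to 122 CPM in the E11.5 libraries and 10.7 to 99.7 in those of E13.5. By E15.5 it was 11.1 to 21.8, and by E17.5 it was 45.2 to 261. Of its 5 rows tested, 2 were lower and 0 higher at E13.5, and 2 lower and 1 higher at E17.5, the lower ones being the 2 members. A list of heme and iron metabolism genes, which also holds Alas2, had 8 rows. Of these 8, 1 was lower and 0 higher at E13.5, and 3 were lower and 3 higher at E17.5. The part of red blood cell precursors in the levels of Ermap and Alas2 was not tested. Tek, an endothelial receptor, had 12.7, 9.87 and 8.64 CPM at E11.5, 14.6, 23.1 and 4.6 at E13.5, 5.88, 4.39 and 5.68 at E15.5, and 1.01, 1.45 and 0.629 at E17.5. The summed vascular list was 96.2 to 142 CPM at E11.5 and 82.1 to 100 at E17.5. Tek fell by 3.77 ± 0.54 (SE) on the log2 scale from E13.5 to E17.5 (edgeR adjusted p = 2.26e-05).

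Other high members had varied roles. Nr1h5, a nuclear receptor gene, had 54.5, 40.3 and 65.4 CPM at E11.5, 4.31, 7.52 and 4.09 at E13.5, 3.55, 6.59 and 3.12 at E15.5, and 0, 0.543 and 0 at E17.5. Crabp1, which binds retinoic acid in the cytoplasm, had 62.5, 46.7 and 45.8 CPM in its 3' UTR row at E11.5, 6.26, 5.64 and 3.96 at E13.5, and 1.18, 0.904 and 2.36 at E17.5. Ucp2, a mitochondrial carrier, had 65.1, 40.6 and 77 CPM at E11.5, and its E13.5 libraries at 3.76, 5.79 and 17.3 were less alike. Their log2 changes to E13.5 were -3.33 ± 0.46 (SE) for Nr1h5, -3.29 ± 0.4 for Crabp1 and -2.76 ± 0.5 for Ucp2. In all 3 genes the later libraries lay below the lowest E11.5 library.

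Most member genes, 614 of 701, had 1 member row, 73 had 2, 10 had 3, Rbms1, Rbpms2 and Zfp395 had 4, and Phldb2 had 5. Rows of 1 gene share a transcript and are not independent. Rbms1 and Rbpms2 encode RNA-binding proteins. The 4 Rbpms2 rows, from its 5' UTR to its 3' UTR, had log2 changes to E13.5 of -3.11, -3.34, -2.86 and -3.57, and they were all the rows of the gene. The 4 Rbms1 members had -2.59, -3.09, -3.36 and -4.24. A further 3 Rbms1 rows that were not members also fell, the highest from 69.2, 55.8 and 51.1 CPM at E11.5 to 18.8, 17.2 and 4.86 at E13.5. Phldb2, a cytoskeletal anchor protein, had 5 rows of which the highest held 17.4, 25.8 and 27.4 CPM at E11.5 and 4.31, 4.77 and 6.26 at E13.5.

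The list of RNA-binding proteins had 3 member rows of 71, of Lin28b, Nova1 and Fmr1, beside the 5.65% of all gene rows that were members. Of the 71 rows 8 were lower and 23 higher at E13.5, and 19 lower and 32 higher at E17.5. The Nova1 row printed above had 9.43, 14.1 and 25.6 CPM at E11.5, 2.92, 3.33 and 5.62 at E13.5, 3.92, 4.8 and 2.67 at E15.5, and 3.02, 5.61 and 1.26 at E17.5. Its change to E13.5 was -2.03 ± 0.48 (SE) on the log2 scale, and after E13.5 the stages overlapped. Mbnl3, a muscleblind splicing regulator outside the list, had 30.6, 66.5 and 33.8 CPM at E11.5 in its 3' UTR row, 3.34, 6.94 and 6.65 at E13.5, and 0.672, 0.181 and 0 at E17.5. The cell cycle list (8 rows) and the radial glia list (11 rows) held no member. Radial glia rows summed to 625 to 1047 CPM at E11.5 and 798 to 1192 at E17.5, although 7 of the 11 rows were lower and 1 higher at E17.5. Rows of neuron genes, of which Tbr1 had a member, summed to 410 to 499 CPM at E11.5 and 3549 to 4034 at E17.5. The part of the growing neuron share in the members' levels was not tested.

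The rule asked that not all 3 libraries of a later stage reach the presence level, so single later libraries could pass it. The rule did not compare the later stages with each other, but it used their libraries. The counts over members are therefore a description beside those of all rows. The adjusted p-values of single members are a description too. From E13.5 to E17.5, 273 members (33.8%) fell and 6 (0.743%) rose, where 15.1% of all rows tested fell and 13.54% rose. The median log2 change was -0.82 for members and -0.01 for all rows. By interval, from E13.5 to E15.5, 7 members (0.867%) fell, where 0.277% of all rows did, and from E15.5 to E17.5, 108 members (13.4%) fell and 8 (0.991%) rose, where 7.18% of all rows fell and 5.89% rose. The 7 were Bmp4, Cped1, Dlk1, Six2, Tfap2b, Tpd52l1 and Twist1, of which Cped1, Dlk1 and Tpd52l1 are named because the count is small.

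Among the falls from E13.5 to E17.5 were groups of rows of 1 gene. Gli3, the hedgehog pathway repressor that patterns the dorsal cortex, had 3 members with log2 changes of -4.01, -2.19 and -2.36 (edgeR adjusted p = 0.00023, 0.00246 and 0.00051). The first of these rows had 2.51, 3.04 and 3.58 CPM at E13.5 and 0.168, 0.362 and 0 at E17.5. All 3 Ccnjl members, among them the row printed above, fell by 2.72, 2.67 and 2.13 on the log2 scale (edgeR adjusted p = 0.000178, 0.000117 and 0.00493). The 5 Phldb2 members had log2 changes of -2.24, -2.09, -2.12, -1.46 and -2.02, all past the threshold. The third missed it without E17.5 replicate 1 or 3, and the fourth without E13.5 replicate 1 or 3 or E17.5 replicate 1 or 3 (edgeR adjusted p of 0.0628 to 0.1). None of the 4 Rbms1 members passed it, while all 4 were called lower at E13.5 than at E11.5. Whether Rbms1 differs from the other 3 genes in the later interval was not tested.

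The Wnt effectors Lef1 and Tcf7l2, named after their values were seen, had 3 members each. The Lef1 rows had log2 changes from E13.5 to E17.5 of -5.21, -4.84 and -4.03, and the Tcf7l2 rows -2.37, -1.64 and -2.32, of which the last missed the threshold without E13.5 replicate 2. The Chd7 row printed above fell by 2.53 ± 0.46 (SE) on the log2 scale from E13.5 to E17.5 (edgeR adjusted p = 0.000297), and its E17.5 libraries lay below all others. Slc40a1, the iron exporter, fell by 2.73 ± 0.52 (edgeR adjusted p = 0.0005). Mbnl3 and Nr1h5, already low at E13.5, fell further by 4.23 and 4.81 on the log2 scale. Tbr1, a deep-layer neuron factor, had 1 member, called Exon, with a log2 change of -2.05 from E13.5 to E17.5, while its 3' UTR row had 83.4 to 135 CPM in the E13.5 libraries and 90.6 to 123 at E17.5.

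The 6 members that rose from E13.5 to E17.5 were Six3, above, and Arhgap28, Stap2, Rad51d, Cpne2 and Pgm1. The 5 others had log2 changes of 1.55, 1.49, 1.3, 1.2 and 1.17 (edgeR adjusted p = 0.0327, 0.0275, 0.0285, 0.0417 and 0.0473). Rad51d, a DNA repair gene, had 6.48, 12.9 and 12.8 CPM at E11.5, 4.31, 4.34 and 4.47 at E13.5 and 13.4, 14.8 and 4.25 at E17.5, so that its E17.5 libraries overlapped both. Each of the 5 missed the threshold without at least 1 single library, and without E13.5 replicate 2 the number that rose was 2. The number was 3 without E13.5 replicate 1, and 3 without E17.5 replicate 1 or E17.5 replicate 2.

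At E17.5, 14 members had 0 counts in all 3 libraries, and at E13.5 and E15.5 none did. Among them were rows of Alx4, Blcap, Dlk1, Gm38158, Gm38312, Hmga2, Igf1, Lrrc1, Otx2, Rspo1, Six2, Tfap2b and Zfp423. Besides Six2, Hmga2 and Tfap2b, E11.5 was at least 66.4-fold higher than E17.5 for Rspo1, at least 60.9-fold for the 5' UTR row of Igf1, 56.1-fold for Otx2 and 39.7-fold for Alx4. The floor covers counting error only.

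**Figure D3:**
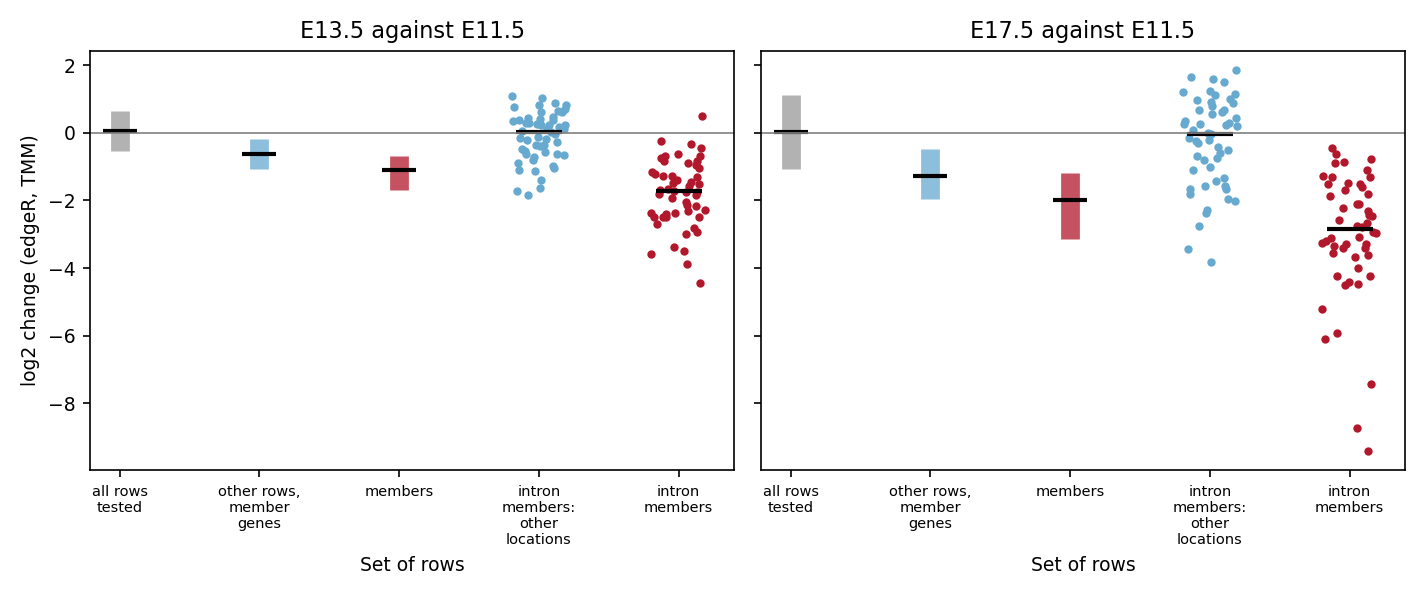
Log2 changes from E11.5 to E13.5 and to E17.5 for all rows tested, for other rows of the member genes and for members, with the median and quartiles as bars, and single points for intron members and for rows of the same genes at other locations. The member medians (-1.09 and -2.0) lie lowest and were fixed by the choice of members, other rows of their genes lie between (-0.64 and -1.28), and points below -8 are rows at 0 counts at E17.5, where the fitted change is no bound.

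The rest of the gene was measured by rows that the rule did not choose. Of the 701 genes, 414 had another row (902 rows in all, none overlapping a member) and 287 had none. In 339 of the 414 (81.9%) another row was present at a later stage. Such rows were still present less often later: 69% were present at E11.5 and 45.9% at E17.5, against 64.5% and 63.9% of all gene rows. Of the 889 other rows tested, 163 (18.3%, 108 genes) were lower at E13.5 than at E11.5 and 2 (0.225%) were higher, where 7.88% of all rows were lower and 9.36% higher. At E17.5, 515 (57.9%, 279 genes) were lower and 22 (2.47%) higher, where 26.1% were lower and 25.9% higher. The median log2 change of these rows was -0.64 at E13.5 and -1.28 at E17.5. From E13.5 to E17.5, 226 (25.4%) fell, where 15.1% of all rows did.

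The 2 rows that were higher at E13.5 were the Tbr1 3' UTR row, from 50.4, 61.9 and 42.5 CPM at E11.5 to 83.4, 117 and 135 at E13.5, and an intron row of the unnamed model Gm32061. Nova1 is an example of a fall outside the member. Its 5' UTR row, not a member, had 181, 92.3 and 197 CPM at E11.5 and 57.1, 54 and 30.7 at E13.5, with no overlap. Without E13.5 replicate 1, 82 other rows were lower at E13.5. With scaling by the total of gene rows, 23 were lower and 219 higher at E13.5, and 168 lower and 151 higher at E17.5. Under that scaling 2.59% of the other rows were lower and 24.6% higher at E13.5, against 1.32% and 59% of all rows, and at E17.5 18.9% were lower and 17% higher, against 9.23% and 55.4%. The counts thus turned to more rises at E13.5, while the share of falls stayed above that of all rows. The other rows share libraries and transcripts with the members.

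By the table's location, 300 members (37.2%) were called 3' UTR, 93 5' UTR, 362 (44.9%) Exon and 52 (6.44%, exact Clopper-Pearson 95% interval 4.85% to 8.36%, counting error only) Intron. Rows present at E11.5 and also later had 50.5%, 7.91%, 40.3% and 1.27%. Among rows present only at E17.5, 2.64% were called Intron, and among all gene rows 3.8%. With a presence level of 30% of the median row the Intron share was 10.2%, and with 60% it was 3.66%. In GENCODE, 227 of the 300 3' UTR members and 62 of the 93 5' UTR members carried that name, 290 of the 362 Exon members were coding, and 52 of 52 Intron members lay in introns of the stated gene and strand. At 89 members (11%) the same peak also had a row on the opposite strand, among them 13 of the 52 Intron members (25%). In 10 of these 13 the opposite row was called UTR or Exon and had more counts at E11.5 than the member. The Btbd8 intron member, an example chosen after its values were seen, lay opposite an exon row of Gm9727 with 797, 329 and 376 counts at E11.5. The part of reads from the opposite strand in such members was not tested. The intron members of Pspc1, Crebbp, Sgf29 and Zfp423, described below, had no opposite-strand row. Without these 10, an alternative added after seeing the data, the Intron share was 5.27%. Of 754 members with exon bases, 451 (59.8%) also spanned intron bases, against 60.1% of all gene rows.

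The members were also narrow and of low score. The shortest width of 145 bases was that of 240 members (29.7%), against 17.1% of rows present at E11.5 and later and 3.97% of those present only at E17.5. Median width was 313 bases against 348 for rows present at E11.5 and later. The median of the peak score that the authors deposited was 20.4 against 46.5, and 20.4 for rows present only at E17.5. Members called Intron had the lowest median change to E13.5, -1.73 against -1.12 for 3' UTR, -1.12 for 5' UTR and -1.01 for Exon. Of the Intron members 61.5% were lower at E13.5, where 18.2% of all intron rows were.

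**Figure D4:**
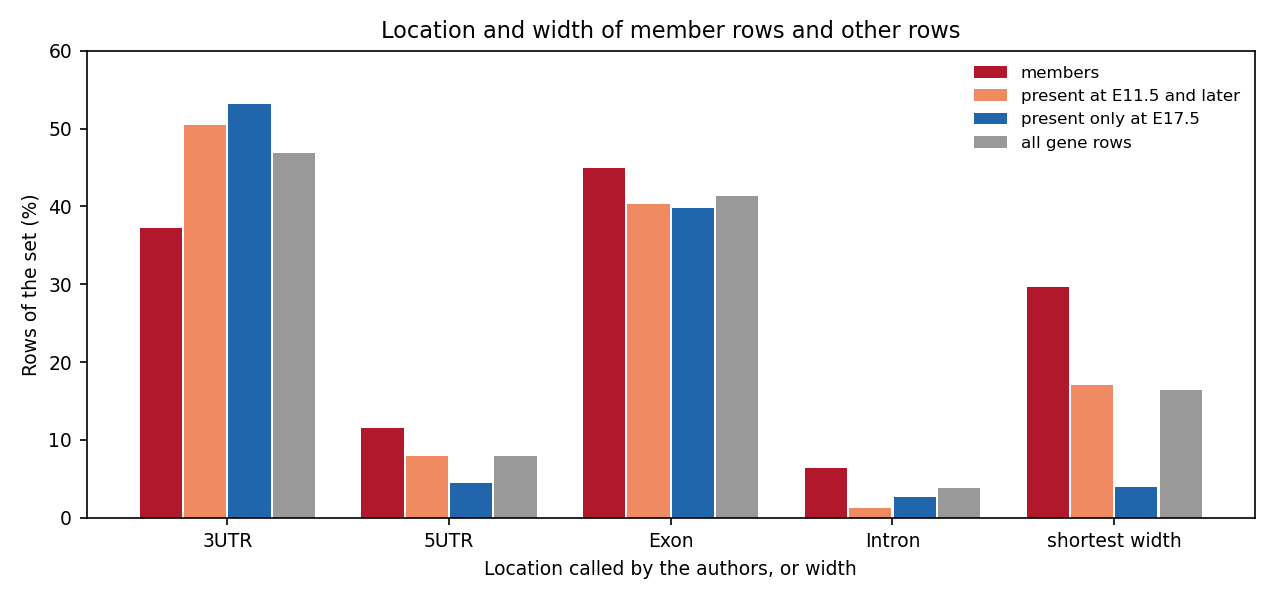
Percent of rows by the table's location and percent of rows of the shortest width, for members, rows present at E11.5 and later, rows present only at E17.5 and all gene rows. Members have the highest Intron share (6.44%) and the highest share of rows at 145 bases (29.7%).

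For the intron members, rows elsewhere in the gene fell about as often as all rows and rose less often. The 52 rows lay in 51 genes, of which 28 had rows at other locations (54 rows, 4 of them members, 53 tested). Of these 53, 4 (7.55%) were lower at E13.5 than at E11.5 and 0 higher, where 7.88% of all rows were lower and 9.36% higher. Their median log2 change was 0.03. The 4 lower rows belonged to AU020206 (-1.63), AW549877 (-1.09), Mtx1 (-1.72) and Spin1 (-0.99), and the Mtx1 row was itself a member. At E17.5, 14 of the 53 (26.4%) were lower and 9 higher, where 26.1% of all rows were lower and 25.9% higher. The median was -0.03. Without the 10 intron members opposite a UTR or Exon row, 4 of 51 such rows were lower at E13.5 and 13 at E17.5, with the same medians. The intron members of the same genes and others had medians of -1.73 and -2.86, which the rule fixed.

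Pspc1, a protein of nuclear paraspeckles, is an example with a large difference between its rows, as are Crebbp and Sgf29 below. Its intron row had 5.3, 16.3 and 5.64 CPM at E11.5, 0.835, 0.868 and 0.511 at E13.5, 0.122, 0.823 and 0.111 at E15.5, and 0, 0.362 and 0.314 at E17.5 (log2 change to E13.5 -3.58 ± 0.69 SE). Its 3' UTR row had 32.1, 30.4 and 27.1 CPM at E11.5, 43.8, 41.8 and 14.6 at E13.5, 31.3, 67.6 and 37.2 at E15.5, and 44.7, 81.9 and 54.1 at E17.5. The intron row was lower in all 9 later libraries than in any of E11.5, while the 3' UTR row of the same gene was within or above its E11.5 range in 8 of them.

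Crebbp, a histone acetyltransferase, had an intron row with 8.84, 5.32 and 12.4 CPM at E11.5, 2.64, 1.88 and 0.511 at E13.5 and 0.336, 0.723 and 0.314 at E17.5. Of its 7 exon rows, with log2 changes of 0.3 to 1.1 at E13.5 and 0.23 to 1.58 at E17.5, 0 passed the test at E13.5 and 2 were higher at E17.5. The exon row that differed most from the intron row had 45.4, 60.8 and 36.8 CPM at E11.5, 100, 72 and 133 at E13.5 and 139, 65.5 and 126 at E17.5. In the intron row all E11.5 libraries lay above those of the later stages, and in that exon row all lay below them. Sgf29, a chromatin reader of the SAGA complex, had 16.2, 9.12 and 22.5 CPM in its intron row at E11.5, 2.64, 2.89 and 1.79 at E13.5 and 2.86, 6.69 and 7.23 at E17.5. Its 3' UTR row had 9.72, 7.6 and 9.02 CPM at E11.5, 15.4, 11.4 and 19.9 at E13.5 and 25.5, 14.8 and 22 at E17.5. Here too the E11.5 libraries were the highest of the intron row, and in the 3' UTR row they lay below those of E13.5 and E17.5.

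Zfp423, a zinc finger factor of neural progenitors, had 6.19, 6.84 and 13.2 CPM in its intron member at E11.5, 1.39, 0.289 and 1.53 at E13.5 and 0 in all 3 libraries at E17.5. Its 3' UTR row had 80.4, 40.6 and 34.9 CPM at E11.5, 42.4, 61.8 and 26.1 at E13.5 and 17.6, 10.3 and 12.1 at E17.5. Here the E11.5 and E13.5 libraries of the 3' UTR row overlapped.

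Members were unevenly placed on the strands. Of the 807, 532 (65.9%) lay on the plus strand, against 44.6% of rows present at E11.5 and later, 50.6% of rows present only at E17.5 and 50% of all gene rows. The share was 69.3% for 3' UTR, 64.5% for 5' UTR, 65.2% for Exon and 53.8% for Intron members. Whole libraries moved in the same sense. The median plus-strand row lay at 76.7% to 89.7% of the library's median row at E11.5 and at 69.9% to 79.5% later, and the median minus-strand row at 113.8% to 130.0% and 125.6% to 146.9%. When each strand was scaled by its own median row, an alternative added after seeing the data, 808 rows were members and 395 of them (48.9%) lay on the plus strand. Of the 807 members, 498 (61.7%) were kept under that scaling, and of these 55.8% lay on the plus strand.

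**Figure D5:**
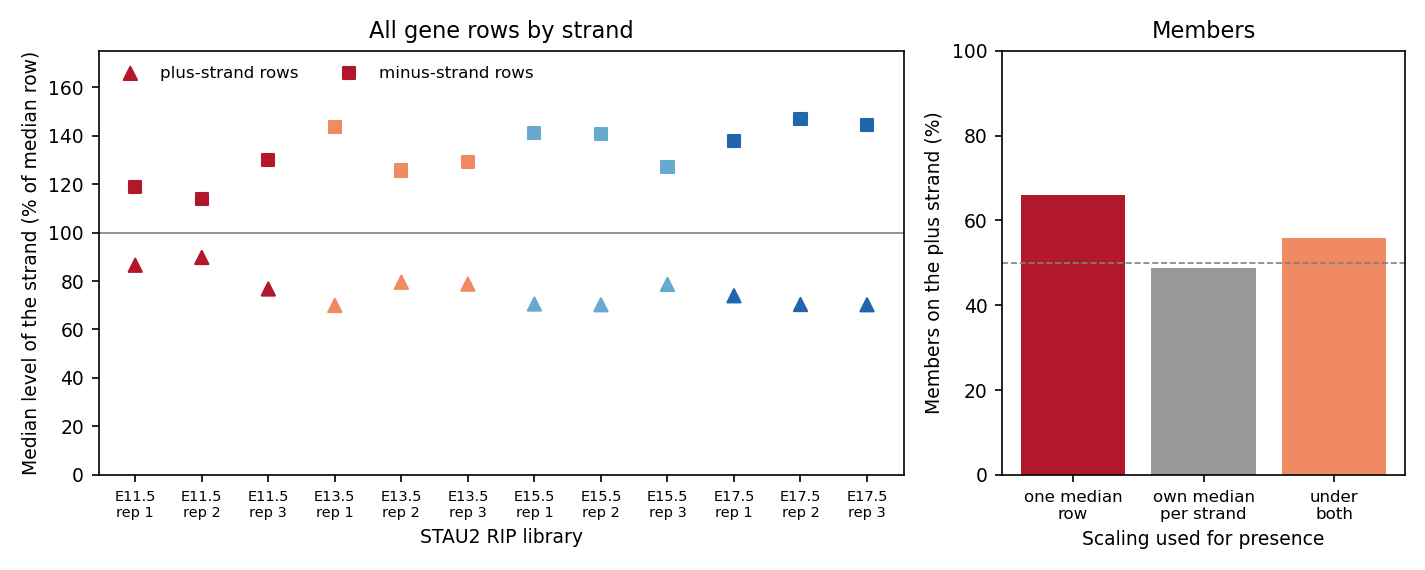
Median row of each strand in every library, as percent of the library's median row (left), and percent of members on the plus strand under each scaling, with a dashed line at 50% (right). In every library the median plus-strand row lies below the median minus-strand row, and the plus-strand share of members is 65.9% with 1 median row, 48.9% with a median per strand and 55.8% among rows that are members under both.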

How the data were processed

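STAU2 immunoprecipitation libraries of 4 stages with 3 replicates each were analysed. The authors deposited whole-number counts per merged peak and strand, with the table's own locations and a peak score whose scale is not stated. Tool and build, per the submitters' processing notes, were HOMER 4.10 and mm10 (GRCm38). Neither aligner nor counting tool nor the treatment of multi-mapped reads is stated there, so rows of near-identical gene copies are uncertain. The kit in the labels' protocols marks the strand. Column names fit the stage and number of an input library as well as of an immunoprecipitation, and they were read as the latter since the table is one of peaks.

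Of 18975 rows, 4513 called Intergenic and 170 without a gene were left out. The 14292 gene rows were fitted with edgeR 4.0.16 (R 4.3.3) using TMM, filterByExpr and the quasi-likelihood F test over all 12 libraries without a block, with Benjamini-Hochberg adjustment at 0.05 over 14101 rows. The biological coefficient of variation was 0.342. The procedure was tested on simulated counts with the same composition at all stages, apart from rows changed on purpose. That test does not cover the different composition of the E11.5 libraries. CPM are edgeR's after TMM. Nothing in the labels tells if replicates come from different animals, and p-values then reflect no more than the spread among these libraries. Stems were predicted with RNAfold 2.7.2.

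The members and gene lists were chosen with earlier results of these data known. Named genes followed a rule, which first took members highest at E11.5 and those with the largest fall to E13.5. It also took the largest and smallest difference between E17.5 and E13.5, values nearest the presence level, the most member rows and members of each list. The last picks were the intron members highest at E11.5, and member genes whose other row differed most from the member row in the change to E13.5. Alternatives were other presence levels, scalings, DESeq2 1.42.0, no filter, a replicate block and leaving out each library. Some items that the rule picks are not reported here.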

Additional observations from a re-analysis of the deposited data

How the results depend on the processing

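Of 807 members, 331 were kept with a presence level of 30% (41%), 457 with 60% (56.6%), 420 when 2 of 3 libraries sufficed (52%) and 744 with 5 CPM (92.2%). With 30% the Intron share was 10.2%, and 7 other rows of member genes were higher at E13.5 and 34 at E17.5. With 60% the Intron share was 3.66%. With each strand scaled by its own median row, 7 and 34 other rows were higher. Scaling by the total of gene rows gave 97 members lower at E13.5 and 329 at E17.5, with 23 other rows lower and 219 higher at E13.5, and 168 lower and 151 higher at E17.5. That scaling moves the median of all rows up, as given in the report. Leaving out 1 library gave 689 to 1033 members, an Intron share of 5.91% to 7.33%, 206 to 335 members lower at E13.5 and 578 to 645 at E17.5, and 215 to 279 lower and 2 to 6 higher at E17.5 than at E13.5. Among other rows it gave 82 to 177 lower and 1 to 3 higher at E13.5, the 1 without E11.5 replicate 1 or 3, and 453 to 528 lower and 16 to 23 higher at E17.5. The cause was not tested. Of 65 log2 changes none reversed. With scaling by the total 7 missed the threshold (Sall4, Tfap2a, Otx2, Bmp4, Pgm1, Crebbp and Nova1), with the median row Pgm1, with DESeq2 Tfap2a, and 44 values without 1 library.

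Replicate numbers are shared between stages, but the 18 same-number pairs had correlations of -0.181 to 0.517, of which 11 were over 0.1, among them all 6 of replicate 2, 1 of 6 of replicate 1 and 4 of 6 of replicate 3. Pairing was therefore not taken as given, and it is not settled either way. With the replicate number as a block, 379 members were lower at E13.5, 661 at E17.5, and 294 lower and 8 higher at E17.5 than at E13.5. Other rows gave 193 lower and 3 higher at E13.5, and 530 lower and 21 higher at E17.5. Depth limits the members: a level of 45% stood for 13.05 counts in the shallowest E11.5 library, and E17.5 values of 0 allow up to 3 counts.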
